A study of Drosophila simulans x Drosophila sechellia and Drosophila simulans x Drosophila mauritiana and Drosophila mauritiana x Drosophila simulans with 63 samples.

Results

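The data described here are the 2 parental alleles of each gene in eggs laid by F1 females whose mother was *D. simulans* and whose father was *D. sechellia*. These females were mated to *D. simulans* males, a cross written (*sim* x *sec*) x *sim*, and 3 single embryos were collected at stage 2 and sequenced as poly(A) RNA, out of 63 embryos in the series. Members were the genes whose allele imbalance had 1 direction in all 3 embryos, whether reads were mapped to the *D. simulans* or to the *D. sechellia* genome. Of 10733 orthologous genes, 5101 had a mean scaled value of at least 5 for either allele in both mappings, and 2088 of these were members (40.9%). The *D. simulans* allele was higher in 1055 (20.7%) and the *D. sechellia* allele in 1033 (20.3%).

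Each species was represented by 1 line, *D. simulans* and *D. mauritiana* by *white* mutant lines and *D. sechellia* by a wild-type line. The series holds this cross in 1 direction only. Set beside the hybrid eggs were 3 stage 2 embryos of *D. simulans*, 3 of *D. sechellia*, 3 stage 2 embryos from each of 4 crosses through F1 mothers with *D. mauritiana* alleles, and 6 stage 5 F1 embryos of *D. simulans* mothers and *D. sechellia* fathers. Nothing in the labels says whether embryos of a group had separate mothers, so p-values measure the spread between these embryos.

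A stage 2 fly embryo has not yet switched on its own genome. Its mRNA was made in the nurse cells of the ovary, which carry the mother's chromosomes, and was passed into the egg. In an F1 mother both alleles of a gene share the same nurse cells, so a regulatory difference in the DNA next to the gene (*cis*) shows as unequal alleles, whereas a difference in diffusible factors (*trans*) acts on both alleles alike. The comparison of alleles with parental species addresses how far maternal expression has diverged through either route.

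The embryos fitted their label. All 12 maternal transcripts of the marker list, among them *bcd*, *osk* and *nos*, were measured, with a mean sum of both alleles between 673 and 13763. None of the 21 zygotic markers, such as *eve* and *ftz*, passed the minimum, and the highest was *twi* at 4.14. Their summed level was 43.7 in embryo 1, 8.64 in embryo 2 and 6.43 in embryo 3, and the part of this in the allele differences was not tested. Of follicle cell, yolk and testis transcripts, 12 of 13, 2 of 3 and 2 of 3 were listed at 0, with *Cp7Fa* highest at 21.2. Since 14 of 31 proteasome genes and 9 of 85 ribosomal protein genes were listed at 0 too, a 0 can be a gene that was not measured, and these lists say nothing of other cell types. Reads assigned to an allele numbered 4960253 to 7044646 per hybrid embryo in the *D. simulans* mapping and 3694879 to 5218056 in the *D. sechellia* mapping.

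The genome that reads were mapped to shifted the ratio of the alleles. The median log2 ratio of the *D. simulans* to the *D. sechellia* allele was 0.11, 0.09 and 0.09 in embryos 1, 2 and 3 with reads mapped to *D. simulans*, and -0.09, -0.08 and -0.09 with reads mapped to *D. sechellia*. The mean of both mappings had a median of 0.01. For this reason a gene was called only where limma's adjusted p was below 0.05 in both mappings with the same sign. By this rule 515 genes (10.1% of those tested) were called with the *D. simulans* allele higher and 573 (11.2%) with the *D. sechellia* allele higher. A further 158 genes (3.1%) were called in both mappings but in opposite directions, and in 154 of them the allele of the genome mapped to was the higher.

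**Figure D1:**
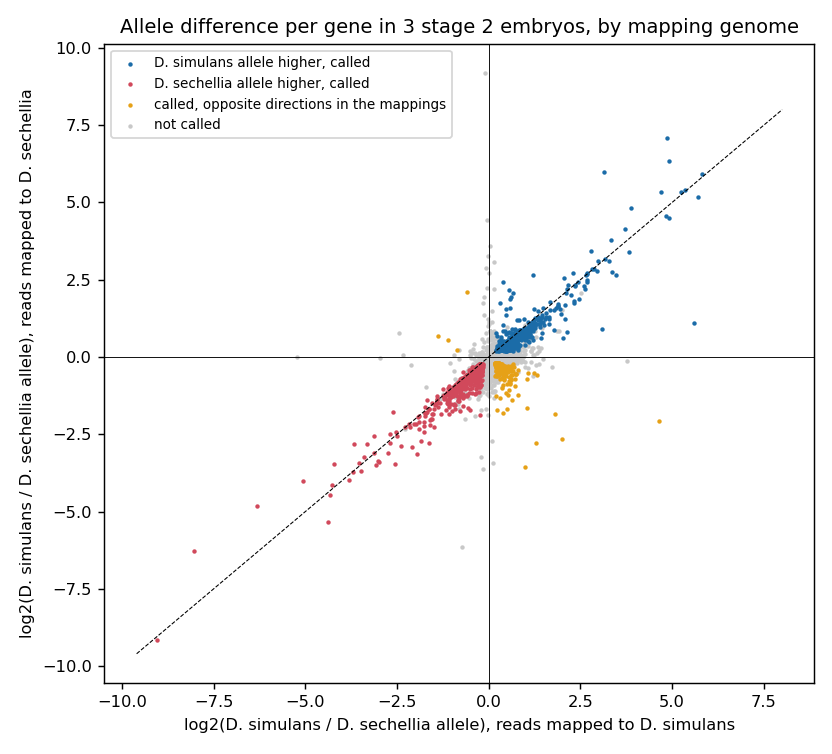
Log2 ratio of the *D. simulans* to the *D. sechellia* allele for 5101 genes, mean of 3 stage 2 embryos, with reads mapped to *D. simulans* (x axis) and to *D. sechellia* (y axis), coloured by call, with a dashed line of equality. Called genes of either species lie near the line, and the 158 genes called in opposite directions lie mostly at the lower right.

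Most imbalances were small. Among called genes, the mean log2 ratio over embryos and mappings had a median of 0.57 where the *D. simulans* allele was higher and -0.55 where the *D. sechellia* allele was higher. Without regard to sign, the quartiles were 0.40 and 0.94 in the former and 0.39 and 0.93 in the latter. Over all genes tested they were 0.07 and 0.35. A ratio beyond 2-fold was seen in 121 and 128 called genes, and beyond 8-fold in 21 and 20. Members came from every chromosome arm, with no test between arms. On the X chromosome 20.9% of 867 tested genes had the *D. simulans* allele higher in all embryos and mappings and 21.7% the *D. sechellia* allele, and on the 4 large autosome arms these shares lay between 19.5% and 21.6% and between 17.7% and 21.2%. The small chromosome 4 had 34 tested genes, with shares of 26.5% and 17.6%, which are 9 and 6 genes. At the minimum itself, *CG30503* lay just inside with 5.01 for its larger allele in the lower mapping, and *CG1909* just outside with 4.99.

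The extreme of the *D. sechellia* side was *drl* (derailed), a Wnt receptor known from axon guidance, listed on arm 2L of the *D. simulans* genome with an exon at 18698876 to 18699601. Its *D. simulans* allele had 0.508, 0.617 and 0.714 in the 3 embryos, which is 1 read each, against 819, 831 and 881 for the *D. sechellia* allele. The alleles did not overlap in any embryo or mapping. Of the signal, 0.0724% ± 0.00964 came from *D. simulans* (SD, n = 3), and the adjusted p was 7.4e-06 in the *D. simulans* mapping and 0.000194 in the *D. sechellia* mapping.

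*nompB*, an intraflagellar transport protein of sensory cilia, also on 2L, had 0, 0.617 and 0 for the *D. simulans* allele and 391, 228 and 319 for the *D. sechellia* allele. *CG32191* on 3L had no *D. simulans* read in any embryo, and its *D. sechellia* allele had 77.2, 79.6 and 78.6. A total of 0 of 391 reads allows a *D. simulans* share of up to 0.767%, and the *D. sechellia* allele was at least 130-fold higher, with 3 reads over the group as the floor. These intervals and floors cover counting error only.

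*vari* (varicose), a scaffold protein of septate junctions, the seals between epithelial cells, lies on 2L and had 5.59, 3.08 and 0.714 for the *D. simulans* allele and 115, 151 and 94.3 for the *D. sechellia* allele. *cora* (coracle), a membrane skeleton protein on 2R with an exon at 15723863 to 15723964, had 2.03, 4.94 and 5.00 against 112, 89.5 and 85.0. *D. simulans* contributed 2.46% ± 1.98 in *vari* and 4.19% ± 2.09 in *cora*, with no overlap between alleles. The adjusted p of *cora* was 0.0022 and 0.0034 in the *D. simulans* and *D. sechellia* mappings.

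Of the other 7 genes with the largest excess of the *D. sechellia* allele, *CG6220*, *chas*, *CG7702*, *nonA-l*, *CG4676*, *CG30403* and *CG8665*, the *D. simulans* share lay between 3.37% and 6.63% in the *D. simulans* mapping. *nonA-l* is a paralog of the RNA-binding gene *nonA*, and reads of close copies may be split between them. *chas*, on the X, had 2.03, 1.23 and 4.29 for the *D. simulans* allele and 57.9, 51.8 and 81.4 for the *D. sechellia* allele.

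On the *D. simulans* side, the largest mean difference was that of *CG4860* on 3R. Its *D. simulans* allele had 39.6, 36.4 and 25.7 and its *D. sechellia* allele 0, 0.617 and 0 in the *D. simulans* mapping, where at most 2 variant sites were covered. With up to 25 sites in the *D. sechellia* mapping the values were 220, 228 and 160 against 1.03, 0.601 and 0.

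*Cyt-c1L*, a copy of the gene for cytochrome c1 of the respiratory chain, had 44.7, 85.8 and 47.1 for the *D. simulans* allele and 0, 0.617 and 0.714 for the *D. sechellia* allele. *CG14688*, with an exon at 14568463 to 14568663 of 3R, had 56.9, 70.9 and 70.0 against 1.02, 0.617 and 0.714. In both genes the *D. simulans* allele carried 98.8% to 99.3% of the signal, and the adjusted p lay between 0.000342 and 0.000876 over both mappings.

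*CG32163* on 3L had no read of the *D. sechellia* allele among 124 in the *D. simulans* mapping and none among 198 in the other, which allows shares of up to 2.42% and 1.52%. *CG11034* on 2L was the most abundant gene of this group in the *D. simulans* mapping, though not in the other. With reads mapped to *D. simulans* it had 210, 188 and 231 for the *D. simulans* allele. Its *D. sechellia* allele had 5.59, 6.79 and 5.71, a fold of 34.7 between the means. *uzip* (unzipped), a cell adhesion protein on 2R, had 208, 173 and 203 against 14.2, 5.55 and 2.14. *CG14615* on the X had 47.7, 68.5 and 47.9 for the *D. simulans* allele and 3.56, 3.70 and 6.43 for the *D. sechellia* allele, a *D. simulans* share of 92.0% ± 3.47.

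**Figure D2:**
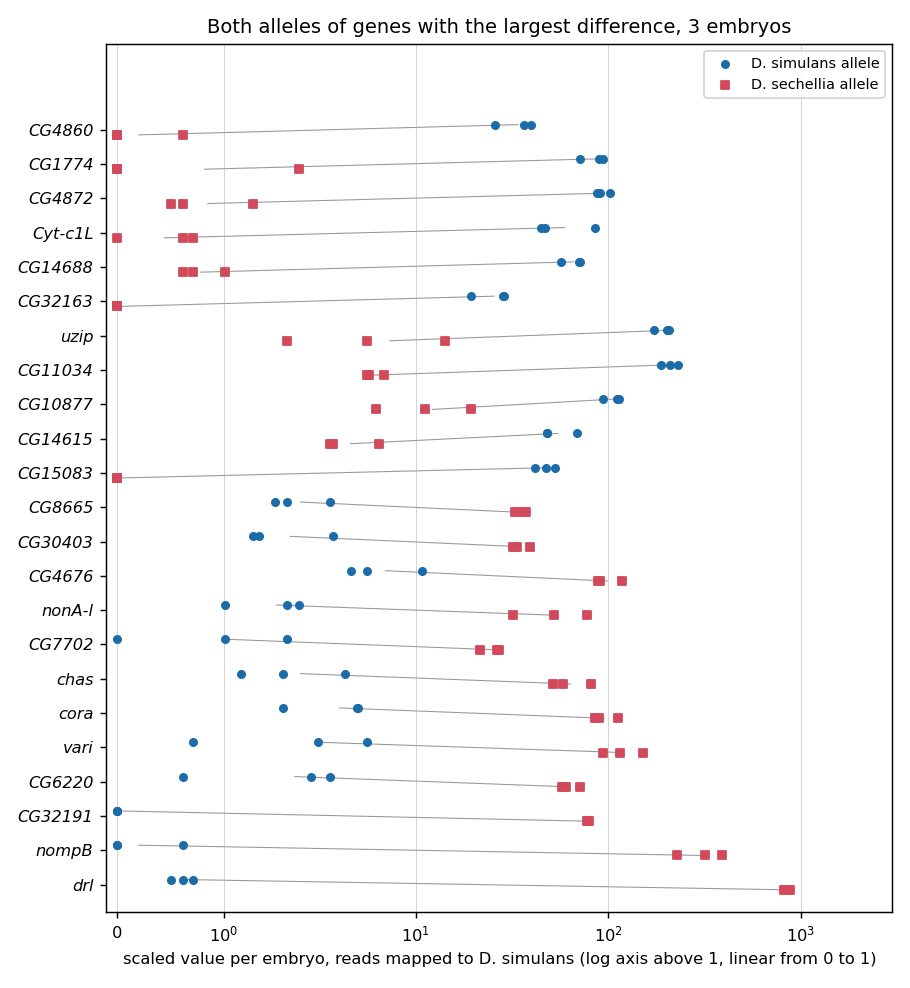
Scaled value of the *D. simulans* allele (blue circles) and of the *D. sechellia* allele (red squares) in each of 3 stage 2 embryos, reads mapped to *D. simulans*, for 11 genes with a higher *D. simulans* allele and 12 with a higher *D. sechellia* allele from those with the largest differences among called genes with a sum of alleles of at least 20, on an axis that is logarithmic above 1. Grey lines join the means. The alleles did not overlap in any of these genes.

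For 17 of the 5101 genes, at least 95% of the signal came from 1 allele in every embryo and mapping. That allele was *D. simulans* in 11, among them *CG14314*, *Exn*, *scaf*, *CG1774* and *CG4872*, and *D. sechellia* in 6, with *CG17739* and *CG6220* among them. The mean sum of both alleles in the lower mapping ran between 6.20 and 687 in these genes, so the set includes genes of low and of moderate abundance.

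The called genes with the highest sums of alleles, unlike those above, were not picked by the size of their difference. A relation between abundance and imbalance was not tested. *Hsp27*, a small heat shock protein, had the highest sum of alleles on the *D. simulans* side in the mean of both mappings. It had 4055, 4631 and 3910 for the *D. simulans* allele and 2357, 2734 and 2253 for the *D. sechellia* allele. The log2 ratio was 0.78 ± 0.04 (SE) with an adjusted p of 0.0015 in the *D. simulans* mapping, and 0.62 ± 0.05 with 0.0032 in the other. *brat*, a translational repressor, had 2351, 2221 and 2360 against 1616, 1598 and 1614.

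*Eno* (enolase of glycolysis), *Mi-2* (a chromatin remodeller), *Jabba* (which anchors histones on lipid droplets) and *RpL40* completed the 6 most abundant genes with a higher *D. simulans* allele. The *D. simulans* share was 53.8% ± 0.23 for *Eno* and 54.2% ± 0.99 for *Mi-2*. For *RpL40* it was 58.0% ± 0.53 in the *D. simulans* mapping and 74.7% ± 0.39 in the *D. sechellia* mapping, where 25.9% of reads from *D. sechellia* parents were given to *D. simulans*. The part of such misassigned reads in that difference was not tested.

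Where the *D. sechellia* allele was higher, the most abundant genes were *RpL3*, *Pxt*, *blw*, *sta*, *RpL28* and *His2Av*. *sta*, which encodes a small-subunit ribosomal protein and lies on the X, had 1598, 2281 and 1941 for the *D. simulans* allele and 2482, 3817 and 2940 for the *D. sechellia* allele. The gene's total differed between embryos, yet *D. simulans* contributed 38.8% ± 1.23. *RpL3* had 2732, 3081 and 2957 against 3269, 3621 and 3579, a share of 45.6% ± 0.37. *blw*, the alpha subunit of ATP synthase, had a share of 46.7% ± 0.58, and *His2Av*, a histone variant, of 45.5% ± 1.60. In *Pxt*, a peroxidase of the ovary, the share was 46.2% ± 0.71 with reads mapped to *D. simulans* and 36.7% ± 0.57 with reads mapped to *D. sechellia*, where 8.79% of the reads of *D. simulans* parents were given to *D. sechellia*. The calls of *brat*, *Eno*, *Mi-2*, *Jabba*, *RpL3*, *Pxt*, *blw*, *RpL28* and *His2Av* were lost whichever embryo was left out, with adjusted p values of limma between 0.0565 and 0.156 in the mapping with the larger p.

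Lists of genes that act in the egg and early embryo were set beside the 10.1% and 11.2% of all tested genes called per direction, with no test of a list. Of 27 tested genes for body axes and germ plasm, 1 was called with a higher *D. simulans* allele and 4 with a higher *D. sechellia* allele, and the median log2 ratio of the list was 0.03. *pgc*, which keeps the germ cells of the embryo transcriptionally silent, had 910, 885 and 818 for the *D. simulans* allele and 667, 681 and 558 for the *D. sechellia* allele, with adjusted p values of 0.0068 and 0.036, and its call was lost whichever embryo was left out (larger adjusted p between 0.0645 and 0.129). *vls* (valois), needed to build germ plasm, had 86.8, 72.2 and 80.7 against 127, 127 and 125. *aub*, a Piwi family protein, had 94.0, 96.2 and 94.3 against 125, 139 and 156. The other called members were *ea*, a protease of the dorsal-ventral pathway, and *fs(1)N*, an eggshell protein of terminal patterning, both higher from *D. sechellia*.

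Of 36 tested genes of the cleavage cycles, only *gnu*, an activator of the PNG kinase, was called in 1 direction. It had 1055, 1001 and 976 for the *D. simulans* allele and 767, 672 and 658 for the *D. sechellia* allele, a share of 59.2% ± 1.09, and its call was lost without embryo 2 (larger adjusted p of 0.0775) and without embryo 3 (0.0635). *Cdk1*, the mitotic kinase, had 479, 503 and 477 against 443, 446 and 446, with adjusted p values of 0.092 and 0.21. Among 24 genes of mRNA control, *brat* was called with a higher *D. simulans* allele and *rump*, an RNA-binding protein that localizes *nos* mRNA, with a higher *D. sechellia* allele. *rump* had 641, 570 and 614 against 824, 753 and 807.

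The piRNA and heterochromatin list had 7 of 27 tested genes called, 4 with the *D. simulans* allele higher and 3 with the *D. sechellia* allele higher. piRNAs are small RNAs that silence transposons in the germ line, and a mother loads the proteins that bind them into her eggs. *qin*, a Tudor domain protein of piRNA amplification, had 264, 246 and 254 for the *D. simulans* allele and 110, 106 and 115 for the *D. sechellia* allele. Its log2 ratio was 1.20 ± 0.05 and 0.83 ± 0.05 in the 2 mappings, with adjusted p values of 0.00097 and 0.0018. *papi*, a Tudor protein on mitochondria that takes part in piRNA trimming, had a *D. simulans* share of 61.1% ± 1.97 in the *D. simulans* mapping and 58.1% ± 1.34 in the other. *armi* and *nxf2* were the other genes with a higher *D. simulans* allele.

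*Hen1*, which methylates the ends of piRNAs, had 31.0, 27.8 and 25.7 for the *D. simulans* allele and 43.7, 66.0 and 40.7 for the *D. sechellia* allele. *arx* (asterix), needed for silencing by Piwi, had 107, 92.5 and 84.3 against 120, 137 and 119, and *aub* was given above. The median log2 ratio of the whole list was 0.00, against 0.01 over all genes tested. The call of *Hen1* was lost without embryo 3 (larger adjusted p of 0.0534), and that of *arx* without embryo 2 (0.122) and without embryo 3 (0.105). In the *D. simulans* mapping 18.8% of the reads of *Hen1* in *D. simulans* parents were given to *D. sechellia*.

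The list of cytoplasmic ribosomal proteins was made from the start of gene symbols, so a member such as *RpLP0-like* is in it by its symbol only. Among its 65 tested genes, 2 were called with the *D. simulans* allele higher (*RpL40* and *RpS21*). With the *D. sechellia* allele higher 7 were called, and the list median was 0.03. *RpS21* had 747, 970 and 788 against 648, 840 and 681, on at most 2 variant sites, and *RpLP0-like* had 230, 225 and 229 against 302, 265 and 283. The call of *RpS21* was lost whichever embryo was left out (larger adjusted p between 0.131 and 0.14), and that of *RpLP0-like* without embryo 1 (0.0712) and without embryo 3 (0.055). None of 15 tested proteasome subunits was called by limma, where 0 had an unadjusted p under 0.05 in both mappings with the same sign, and DESeq2 called 0, whereas edgeR called 5. Their log2 ratios lay between -0.13 and 0.17. Of 12 insulator and promoter factors, *Ibf1* and *BEAF-32*, both insulator proteins, were called with a higher *D. sechellia* allele. *BEAF-32* had 499, 594 and 528 for the *D. simulans* allele and 598, 701 and 617 for the *D. sechellia* allele, a share of 45.8% ± 0.30, and its call was lost whichever embryo was left out (larger adjusted p between 0.0973 and 0.15). *Dref* and *M1BP*, which bind core promoters, and *CG11241* were not called, with *D. simulans* shares between 49.5% and 52.0% in the *D. simulans* mapping.

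Over all tested members, called or not, stress and detoxification genes included larger differences, with log2 ratios of up to 2.59 and 2.29. By the same measure the cytoplasmic ribosomal protein list reached -1.32 and 1.08, and mRNA control genes -1.29. The genes at 1.08 and -1.29 were not called in 1 direction. Of 14 tested heat shock proteins and chaperones, 2 were called in each direction. *DnaJ-H*, a co-chaperone, had 44.2, 43.8 and 29.3 for the *D. simulans* allele and 5.59, 4.94 and 5.00 for the *D. sechellia* allele, a fold of 7.56. *Hsp22*, a small heat shock protein of mitochondria, had 8.63, 23.4 and 14.3 against 35.5, 79.6 and 45.7. *Hsp70Ba*, with a *D. simulans* share of 28.9% ± 7.84 in the *D. sechellia* mapping, has near-identical copies in the genome, and 54.7% of its reads from *D. simulans* parents were given to *D. sechellia* there, so its values are uncertain. Its call was lost without embryo 1 (larger adjusted p of 0.065) and without embryo 2 (0.0503).

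Of 25 tested cytochrome P450s, transferases and related enzymes, 4 were called with the *D. simulans* allele higher, 5 with the *D. sechellia* allele higher and 3 in opposite directions. *GstS1*, a glutathione transferase, had 341, 407 and 441 for the *D. simulans* allele and 112, 192 and 186 for the *D. sechellia* allele. *Cyp4p2* had 116, 99.3 and 111 against 52.3, 41.9 and 25.0, and its call was lost without embryo 1 (larger adjusted p of 0.0619) and without embryo 2 (0.0919). *GstE1* had 90.4, 133 and 124 against 158, 195 and 214, and the X-linked *Cyp311a1* had 9.14, 22.2 and 11.4 against 26.9, 37.6 and 24.3. In the *D. sechellia* mapping 14.4% of the reads of *GstE1* in *D. sechellia* parents were given to *D. simulans*. These enzymes belong to families of close copies in clusters, where the counting could split reads between genes.

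**Figure D3:**
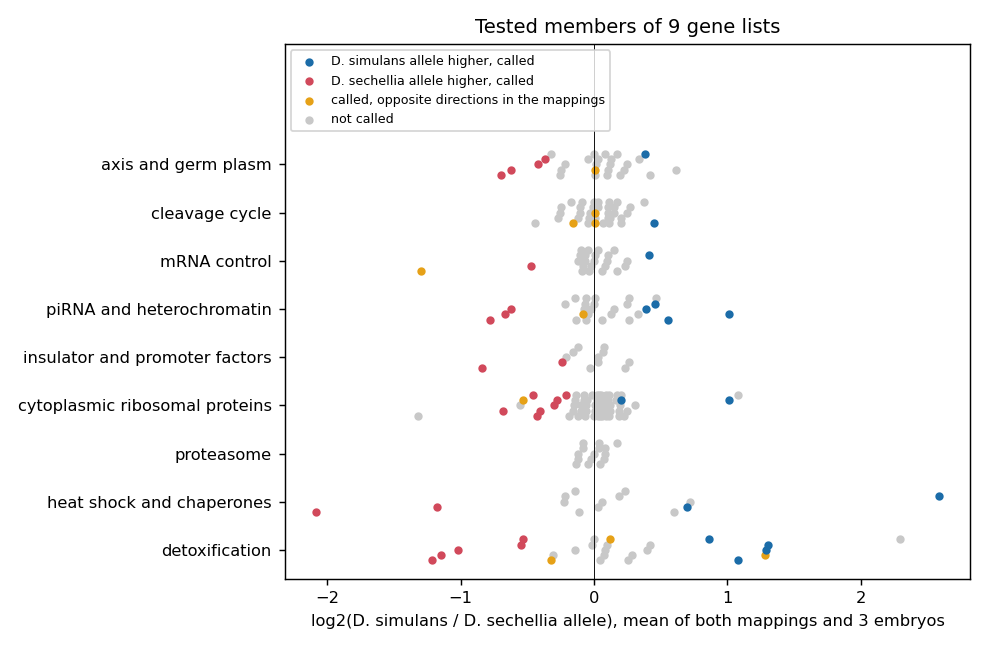
Log2 ratio of the *D. simulans* to the *D. sechellia* allele (x axis, mean of both mappings and 3 embryos) for each tested member of 9 gene lists (rows, with points spread vertically for legibility), coloured by call. Proteasome genes lie between -0.13 and 0.17, and heat shock, detoxification and cytoplasmic ribosomal protein genes reach beyond 1 on both sides.

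The same alleles were measured in eggs of other mothers, which the choice of members did not use. In eggs of F1 females between *D. simulans* and *D. mauritiana*, and of those between *D. sechellia* and *D. mauritiana*, each allele was set against the *D. mauritiana* allele, in 6 embryos per pair, and the difference of the 2 log2 ratios gave a second value of *D. simulans* over *D. sechellia*. A total of 4863 tested genes had a mean of at least 5 for either allele in both pairs. Of 483 called genes with a higher *D. simulans* allele, 478 (99.0%) had a value above 0 there, and of 524 with a higher *D. sechellia* allele, 514 (98.1%) had a value below 0. Over all 4863 genes these shares were 51.5% and 48.5%.

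Among members, 964 of 1007 (95.7%) and 913 of 962 (94.9%) kept their direction. The median value through *D. mauritiana* was 0.56 and -0.52 in the called genes and 0.01 over all. Across the 4863 genes Pearson's r between both estimates was 0.85 and Spearman's rank correlation 0.82, as a description, since genes are not independent and the estimates share genomes and lines, though no embryo. Genes called in opposite directions had a median of 0.00, and 75 of 148 were above 0.

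**Figure D4:**
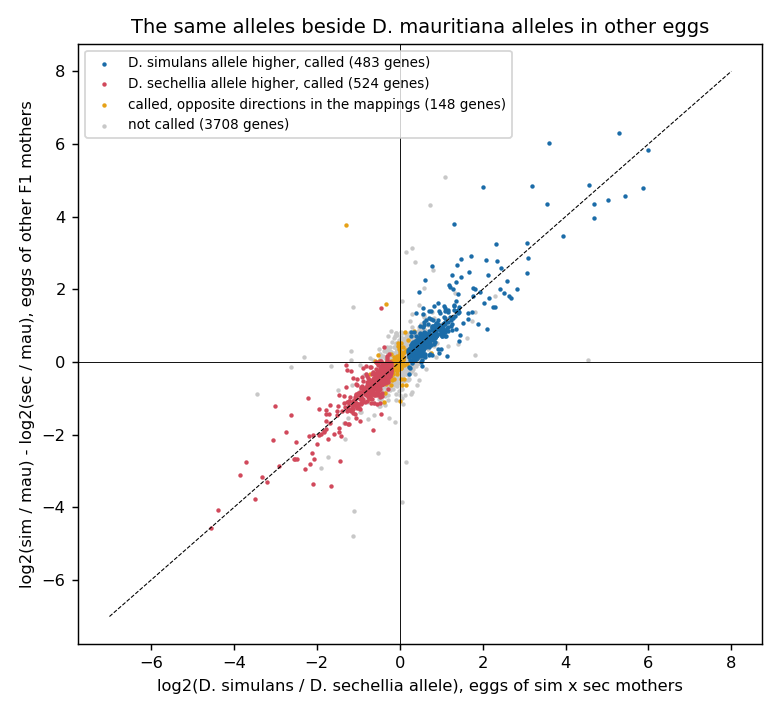
Log2 ratio of the *D. simulans* to the *D. sechellia* allele in eggs of *sim* x *sec* mothers (x axis, mean of both mappings and 3 embryos) against the same ratio taken through *D. mauritiana* alleles in eggs of other F1 mothers (y axis), 1 point per gene, with a dashed line of equality. Of the called genes, 478 of 483 and 514 of 524 fall on the same side of 0 on both axes.

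The *D. mauritiana* alleles also placed the third species beside each large difference. For *drl* the *D. sechellia* allele averaged 941 ± 44.6 in eggs of *sec* and *mau* mothers, beside 0.65 ± 0.62 for *D. mauritiana*, and in eggs of *sim* and *mau* mothers the *D. simulans* allele averaged 0.29 ± 0.36 beside 0.41 ± 0.58 for *D. mauritiana* (SD, n = 6 each). The *D. simulans* and *D. mauritiana* alleles were thus both near 0. The same held for *nompB*, *CG32191* and *CG6220*, whose *D. sechellia* alleles averaged 170 ± 69.5, 34.9 ± 3.79 and 32.4 ± 11.4, and whose *D. simulans* and *D. mauritiana* alleles all averaged below 0.1.

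In *vari* the *D. simulans* allele was the low one, with 0.71 ± 0.58 beside 91.7 ± 19.9 for *D. mauritiana*, and the *D. sechellia* allele averaged 49.4 ± 12.3 beside 92.2 ± 37.8. Conversely, in *CG14688* the *D. sechellia* allele had no signal in 6 embryos, beside 65.4 ± 5.87 for *D. mauritiana*, and the *D. simulans* allele averaged 71.2 ± 5.33 beside 59.8 ± 9.19. *CG4860*, *CG1774*, *CG32163* and *CG11034* showed the same order, with *D. mauritiana* alleles at 20.9 or above and *D. sechellia* alleles at 10.8 or below. In *Cyt-c1L* only the *D. simulans* allele was well expressed, with 38.4 ± 8.51, beside 0.43 ± 0.40 for *D. mauritiana*. The *D. sechellia* allele of this gene averaged 0.84 ± 0.57.

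The alleles were then compared with the species themselves. For each parental embryo only the allele of its own species was used, so reads given to the other allele were left out. Over all genes these were 0.33% to 1.21% of the reads of a parental embryo, with larger shares in some genes. Between *D. simulans* and *D. sechellia* eggs limma called 619 genes (12.1%) higher in *D. simulans* and 650 (12.7%) higher in *D. sechellia* with reads mapped to *D. simulans*, and 434 (8.51%) and 543 (10.6%) with reads mapped to *D. sechellia*. Of these, 291 (5.7%) and 350 (6.86%) were called in both mappings with the same sign. For calling variants, the study's methods took parental reads from an earlier data set, and the sequencing lanes they describe hold too few libraries for the whole series. The parental embryos may therefore have been sequenced apart from the hybrids, and such a difference cannot be told apart from that between hybrids and parents.

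For 131 of the tested genes both alleles were listed at 0 in all 3 *D. simulans* parents in the *D. simulans* mapping, although the same embryos had a median of 694 reads for them in the *D. sechellia* mapping. Without these genes, chosen after the values were seen, 597 (12%) were higher in *D. simulans* and 503 (10.1%) in *D. sechellia*, out of 4970. Values of such genes in *D. simulans* parents are not interpreted here in that mapping.

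Genes called between alleles often differed between the species in the same direction. Of 515 with a higher *D. simulans* allele, 177 (34.4%) were higher in *D. simulans* eggs in both mappings and 1 was lower. Of 573 with a higher *D. sechellia* allele, 231 (40.3%) were higher in *D. sechellia* eggs and 4 were lower. The corresponding shares of all tested genes were 5.7% and 6.86%. The median parental log2 ratio was 0.52 and -0.49 for the groups in the *D. simulans* mapping, and 0.57 and -0.60 in the other, against 0.05 and -0.01 over all genes.

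*drl* was such a gene. Its sum of both alleles was 844 ± 33.1 in hybrid eggs. The allele of the own species had 1.09 ± 1.04 in *D. simulans* and 1538 ± 209 in *D. sechellia* parents. The parental log2 ratio of -9.66 had an adjusted p of 3.9e-08 by limma. *cora* summed to 99.4 ± 12.6 in hybrid eggs, against 5.34 ± 1.25 and 285 ± 48.4 in the parents. For *CG11034* the sum was 215 ± 21.0, against 409 ± 18.7 in *D. simulans* and 20.7 ± 4.71 in *D. sechellia* parents, and for *uzip* 202 ± 22.0, against 296 ± 35.8 and 7.25 ± 1.35. In these 4 genes hybrid eggs lay between the parents, and the parental minus the allele difference was not called in either mapping.

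**Figure D5:**
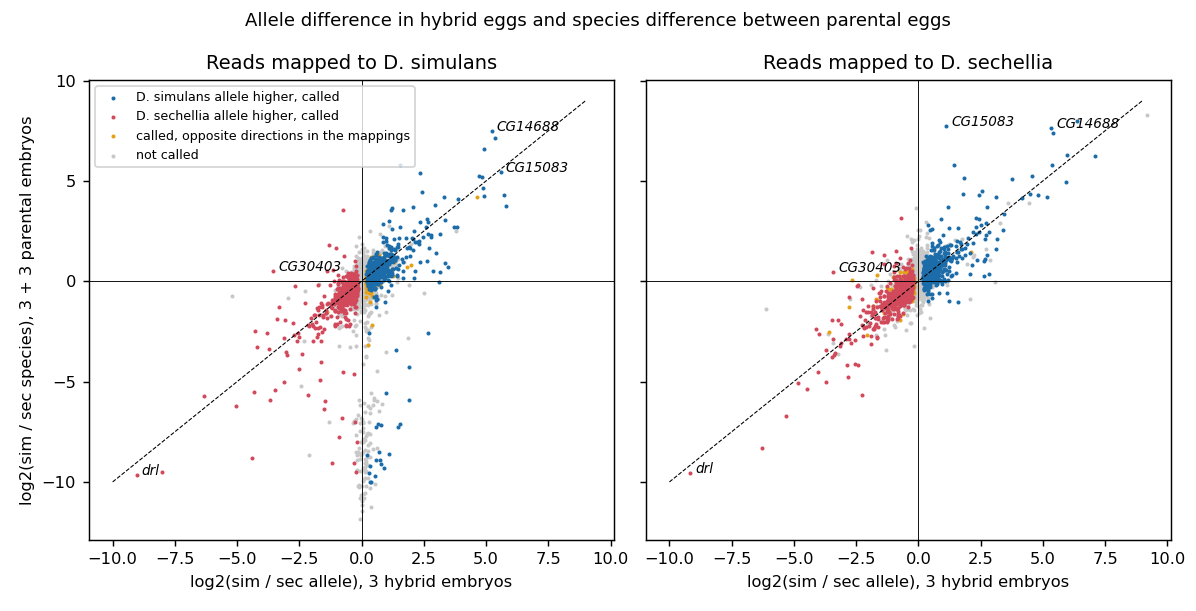
Log2 ratio of the *D. simulans* to the *D. sechellia* allele in 3 hybrid embryos (x axis) and of *D. simulans* to *D. sechellia* eggs, 3 embryos each (y axis), 1 point per tested gene, with reads mapped to *D. simulans* (left) and to *D. sechellia* (right), coloured by the allele call. On the left, 118 of 135 points below -5 on the y axis are among the 131 genes listed at 0 in *D. simulans* parents, and on the right 7 points lie below -5.

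The difference between both contrasts was tested directly, as the parental minus the allele log2 ratio. In the *D. simulans* mapping 73 genes (1.43%) were called above 0 and 343 (6.72%) below 0. Without the 131 genes at 0 these were 51 (1.03%) and 175 (3.52%) of 4970, and in the *D. sechellia* mapping 63 (1.24%) and 43 (0.843%). Only 33 (0.647%) above and 30 (0.588%) below 0 were called in both mappings. Among genes with a called higher *D. simulans* allele, 9 were above and 8 below 0, and among those with a higher *D. sechellia* allele 9 and 7. Most calls of this test therefore depended on the genome mapped to.

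*CG30403*, on 2R at 18108369 to 18109064, had the largest such difference of the 3 named genes called in both mappings. Its alleles had 1.52, 3.70 and 1.43 (*D. simulans*) against 39.1, 32.1 and 33.6 (*D. sechellia*), while *D. simulans* parents averaged 56.5 ± 26.9 and *D. sechellia* parents 36.3 ± 10.9. The parental minus the allele log2 ratio was 4.07 with an adjusted p of 0.00065, and 3.88 with 0.0035 in the *D. sechellia* mapping. In eggs of *sim* and *mau* mothers its *D. simulans* allele was again low, at 4.35 ± 2.30 beside 28.5 ± 8.44 for *D. mauritiana*. For *CG14688* and *Cyt-c1L* the same test gave 2.24 and 1.78, but the *D. sechellia* side was at the floor in both contrasts, with 4 and 2 reads over the hybrid embryos and a mean of 0 and 0.50 in *D. sechellia* parents. The *D. simulans* allele of *CG14688* averaged 65.9 ± 7.86 in hybrid eggs, against 177 ± 5.12 in *D. simulans* parents, and that of *Cyt-c1L* 59.2 ± 23.0, against 204 ± 20.2. With 1 added to every value these ratios follow the *D. simulans* level, so the values do not show that species and alleles differed otherwise in these genes.

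In *qin* and *armi* the alleles differed while the species did not pass the test in either mapping. The parental log2 ratio of *qin* was 0.27 with an adjusted p of 0.24, and the difference between contrasts of -0.92 had 0.0098 in the *D. simulans* mapping and 0.084 in the other. For *armi*, which the rule for named genes did not pick, the parental log2 ratio was -0.34. The difference of -0.87 had an adjusted p of 0.005 by limma in the *D. simulans* mapping, the only mapping given for it. As most calls of this test depended on the mapping, no conclusion is drawn for *armi*. For *CG11241* the alleles did not pass the test, with adjusted p values of 0.67 and 0.051, while *D. simulans* parents averaged 172 ± 34.4 and *D. sechellia* parents 103 ± 26.0, a log2 ratio of 0.75 with an adjusted p of 0.038. The difference between its contrasts passed the test in the *D. sechellia* mapping only, with 0.13 and 0.019.

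At stage 5, after the genome of the embryo has been switched on, both alleles can also be read in F1 embryos, whose mother was *D. simulans* and whose maternal transcripts were therefore *D. simulans*. For *drl*, in 6 embryos the *D. simulans* allele had 398 at the lowest, a median of 458 and 592 at the highest, against 229, 277 and 372 for the *D. sechellia* allele. It made up 62.1% ± 2.33, and was the higher in 6 of 6 embryos in both mappings, whereas stage 2 eggs of *D. simulans* averaged 1.09 ± 1.04 for this gene.

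*cora* had 59.6, 79.4 and 90.1 (lowest, median and highest) for the *D. simulans* allele and 56.2, 68.4 and 86.1 for the *D. sechellia* allele, a share of 53.4% ± 2.65, against 47.2% ± 1.25 in the *D. sechellia* mapping. *uzip* averaged 119 ± 15.1 against 200.3 ± 29.8, with the *D. sechellia* allele higher in 6 of 6 embryos, although the *D. simulans* allele was higher in eggs. *DnaJ-H*, picked after its values were seen, had 0, 5.85 and 10.2 against 14.3, 22.0 and 30.7 and likewise turned round. For *CG11034* the *D. simulans* share was 99.3% ± 0.87 and for *nompB* 7.82% ± 4.35, in the same direction as in eggs. *CG30403* and *CG6220* also kept the *D. sechellia* allele higher, in 6 of 6 embryos in both mappings. *chas* and *CG8665* turned round at low values, averaging 7.59 against 2.00 (3 XX embryos) and 6.79 against 0.28 in the *D. simulans* mapping. These genes are examples and not a full count, and the part of transcripts left from the egg was not tested. The change between stages was not tested.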

How the data were processed

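RNA of single embryos was sequenced as 100 bp paired-end poly(A) libraries. Per the labels, the authors trimmed reads with cutadapt 1.7.1 and aligned them with TopHat2 2.0.13. They mapped to both species' genomes, used variants called with GATK to assign reads to alleles, and deposited an upper-quantile scaled signal per gene, allele and mapping, with the number of variant sites. A read over several sites may count more than once.

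Values were whole multiples of 1 step per embryo and mapping (100% within 0.01), so reads could be recovered as an alternative. Another 252 columns per sample were not used. Genes needed a mean of 5 for either allele in both mappings. limma 3.58.1 (R 4.3.3) was run on log2(value + 1), two-sided, with the embryo as a block for alleles and Benjamini-Hochberg adjustment over all 5101 genes, so fold changes of low genes are understated. Parental embryos entered as 3 against 3, each with the allele of its own species only, and the difference was a contrast in 1 fit. The tests were checked on simulated data, drawn separately for each mapping and without mapping bias. The rule of calls in both mappings was therefore not checked under such a bias.

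Named genes are, per direction, the 12 called genes with the largest difference and the 6 with the highest sum of alleles, at a sum of at least 20, up to 2 per gene list, and 5 genes that the study shows. Of these, 1 gene is not reported here. Members and lists were chosen with earlier results of these data known. Alternatives were other pseudocounts and minimums, edgeR 4.0.16, DESeq2 1.42.0, a beta interval, centring, no block, and each embryo left out. Another left out genes with over 5% of parental signal given to the other allele, in either species and mapping.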

Additional observations from a re-analysis of the deposited data

Results flagged for a closer look

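For *CG30403* the parental species differed from each other otherwise than the alleles did, by a test of the difference itself in both mappings, with a parental minus allele log2 ratio of 4.07 in the *D. simulans* mapping. *CG14688* and *Cyt-c1L* passed the same test with 2.24 and 1.78, where the *D. sechellia* side was at the floor in both contrasts, so these values follow the *D. simulans* level. A difference in collection or sequencing between hybrid and parental embryos cannot be told apart from this.

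Among the 6 stage 5 embryos, 1 stood apart for the *D. simulans* allele of *CG32191* (a gap to the next embryo of 0.761 of the range), of *CG6220* (0.905), and for the *D. sechellia* allele of *CG8665* (a gap of 1, as the other 5 embryos were at 0). The highest values were 8.41, 10.1 and 1.68, in genes of low signal at this stage. The limit a gap had to pass is one that chance passes in about 1 of 20 groups of continuous values. Several genes and both alleles were screened. With 5 of 6 embryos at 0, as for *CG8665*, any signal in the remaining embryo gives a gap of 1. No conclusion is drawn from these gaps.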

How the results depend on the processing

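Calls depended most on requiring both mappings. With the *D. simulans* mapping alone 1576 genes had a higher *D. simulans* allele, with the *D. sechellia* mapping alone 1327 had a higher *D. sechellia* allele, and the median log2 ratio over all genes was 0.0928 and -0.0816. The mean of both mappings gave 907 and 877 calls (*D. simulans* and *D. sechellia* higher). In the same order, edgeR with TMM called 827 and 795, and DESeq2 345 and 365. Of the 515 and 573 calls of limma, edgeR on embryo totals shared 95.7% and 95.6%, and DESeq2 59.6% and 56.9%. Leaving out genes with over 5% of parental signal on the other allele kept 447 (86.8%) and 545 (95.1%) of these calls. Genes left out could not be called there. Without the embryo as a replicate block 334 and 372 were called, and with 1 of 3 embryos left out 271 to 341 and 316 to 391, the lowest without embryo 1. Of the 56 named genes with a call, 38 were called with each embryo left out. The other 18 are named in the report, and 12 of them were lost whichever embryo was left out.

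Between the parents, both mappings together, added after seeing the data, gave 291 and 350 calls. Leaving out 1 parental embryo gave 386 to 590 genes higher in *D. simulans*, the lowest without *D. simulans* embryo 1. A fit with the replicate number as a replicate block gave 584 and 614. The numbers did not pair the embryos (correlations of -0.32, 0.23 and 0.17). For the parental minus the allele difference, both mappings gave 33 above and 30 below 0, the *D. sechellia* mapping 43 below 0, and leaving out the genes at 0 in *D. simulans* parents 175 below 0. With 1 embryo left out, 36 to 152 were above 0, the highest without *D. sechellia* parent 1 and the lowest without hybrid embryo 2. Genes with few variant sites or low values are limited by counting.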

Other observations

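The *D. mauritiana* allele was nearer to *D. simulans* than to *D. sechellia* in 305 of 483 called genes with a higher *D. simulans* allele (63.1%) and in 321 of 524 with a higher *D. sechellia* allele (61.3%), against 56.3% of all 4863 genes measured. Mean log2 ratios to *D. mauritiana* in eggs of other mothers were compared, with no test.

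*CG15083* depended on the mapping. Its *D. sechellia* allele was at 0 in all 3 hybrid embryos with reads mapped to *D. simulans*, where 1 variant site was covered, and at 43.6, 57.1 and 60.5 with reads mapped to *D. sechellia*. *D. sechellia* parents averaged 0.62 ± 0.17 in that mapping. *CG10877* averaged 16.3 ± 4.32 in *D. simulans* parents with reads mapped to *D. simulans* and 250 ± 15.9 with reads mapped to *D. sechellia*.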
